A study of Mus musculus with 16 samples.

Results

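The 10 genes described here encode receptor chains for interleukins 2, 15, 4, 21, 12 and 18: Il2ra, Il2rb, Il2rg, Il15ra, Il4ra, Il21r, Il12rb1, Il12rb2, Il18r1 and Il18rap. They were taken by symbol, as a list drawn up with earlier results of these data known, and all 10 were found among the 24028 genes counted and passed the filter on low counts that left 17414 genes for testing. RNA came from CD8 T cells sorted out of tumours of BALB/c mice that had received TS/A cells, a mouse mammary adenocarcinoma line, in the mammary pad. The gate kept live cells positive for CD45.2 and CD8 and negative for CD4. From day 7 after tumour injection the animals received either vehicle or 20 mg/kg entinostat (ENT), an inhibitor of class I histone deacetylases, every day. Tumours were taken at day 10 or day 17, 3 or 10 days into dosing, and each of the 4 combinations has 4 libraries. All groups carried the same tumour line, and no tumour-free group is analysed here. Whether 1 animal or a pool of tumours gave each library is not stated in the labels.

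Cytokine receptors of these families are assembled from separate chains, several of which are shared. The beta chain (Il2rb) and the common gamma chain (Il2rg) form the signalling pair for interleukin 2 and interleukin 15, and the alpha chains Il2ra and Il15ra raise affinity or present the cytokine. The common gamma chain also pairs with Il4ra and Il21r. These receptors signal through JAK kinases and STAT factors, chiefly STAT5 for interleukin 2 and 15. Il12rb1 and Il12rb2 together form the interleukin 12 receptor, which acts through STAT4, and Il12rb1 is also part of the interleukin 23 receptor. Il18r1 binds interleukin 18 and Il18rap is its signalling partner, using the adaptor MyD88 rather than a JAK. In CD8 T cells, activation raises Il2ra and Il12rb2, and interleukin 12 with interleukin 18 is a strong inducer of interferon gamma.

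Total counts ran from 554593 in entinostat day 17 replicate 3 to 6975904 in vehicle day 17 replicate 1. The shallowest library held 614 counts of Il2rb where the other 15 held 1581 to 3157, so counts of abundant genes did not follow depth. All 10 markers of CD8 T cells on the list used, among them Cd8a at 308 to 588 CPM, were detected in every group. Markers of plasmacytoid dendritic cells were also present, and 11 of 12 fell with the drug at each day. They summed to 1374 to 2626 CPM in vehicle libraries and 548 to 1017 CPM in entinostat libraries at day 10, and to 2325 to 2809 and 448 to 577 CPM at day 17. The part of these cells in the results on receptor chains was not tested. In sorted bulk RNA, fewer cells of a type and less RNA per cell cannot be told apart. Levels are counts scaled by TMM to a common library total (CPM), and fold changes are log2 values with standard errors (SE) from edgeR's quasi-likelihood test, called at an adjusted p under 0.05 over all 17414 genes. In this scaling, genes above the level of olfactory and vomeronasal receptor reads had a median log2 value of −0.14 for entinostat at day 10 and −0.19 at day 17, −0.06 for vehicle and −0.13 for entinostat over time. Changes are relative to these shifts.

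Of the members, 3 pairs are neighbours in the genome with 0 coding genes between them, all on GRCm38. Il2ra (chr2:11642807-11693193) and Il15ra (chr2:11705290-11734317) lie 12096 bases apart, Il4ra (chr7:125552120-125579474) and Il21r (chr7:125603429-125633570) 23954 bases, and Il18r1 (chr1:40465552-40500854) and Il18rap (chr1:40515362-40551705) 14507 bases. Il2rb lies at chr15:78479256-78495271 on the minus strand, Il12rb1 at chr8:70808449-70821424 on the plus strand and Il12rb2 at chr6:67291318-67376188 on the minus strand. Il2rg, on the X chromosome at chrX:101264378-101268255, shares 30.5% of its exon bases with the gene model Gm20489 on the same strand. Il12rb2 shares 40% of its exon bases with Serbp1 on the opposite strand, and the library kit does not mark strand, so reads there cannot be told apart. Il4ra shares 9.51% with the gene model Gm44876 on the opposite strand. Serbp1, an mRNA-binding protein, stood at 252 ± 26.3 CPM with vehicle and 255 ± 13.8 CPM under entinostat at day 17 (SD, n = 4 each).

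Sequence from the 250 bases before the start site is shown for the members called in an entinostat comparison that the RefSeq promoter table (GRCm38.p6) holds, since these are the genes whose RNA differed. The window is whole for Il2ra, Il12rb2 and the first of 3 annotated Il18r1 starts. That of the second Il18r1 start overlaps it and is not printed, and of that of start 3 the surroundings of 2 motif matches are printed. The table matched 8 of the 10 members, and Il2rb and Il12rb1 were not among them. Capitals mark TTCNNNGAA, the core of a STAT site, searched on both strands.
Il2ra, chr2:11642542-11642791, plus strand: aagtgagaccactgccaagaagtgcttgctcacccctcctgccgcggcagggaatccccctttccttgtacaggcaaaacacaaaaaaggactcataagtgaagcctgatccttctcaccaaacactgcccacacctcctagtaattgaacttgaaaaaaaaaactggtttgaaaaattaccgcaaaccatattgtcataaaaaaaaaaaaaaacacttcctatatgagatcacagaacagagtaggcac
Il12rb2, chr6:67376189-67376438, minus strand: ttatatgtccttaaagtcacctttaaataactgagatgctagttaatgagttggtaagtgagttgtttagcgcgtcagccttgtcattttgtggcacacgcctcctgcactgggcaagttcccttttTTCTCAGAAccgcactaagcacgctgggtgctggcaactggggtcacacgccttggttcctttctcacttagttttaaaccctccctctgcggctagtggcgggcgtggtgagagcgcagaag
Il18r1, start 1, chr1:40465302-40465551, plus strand: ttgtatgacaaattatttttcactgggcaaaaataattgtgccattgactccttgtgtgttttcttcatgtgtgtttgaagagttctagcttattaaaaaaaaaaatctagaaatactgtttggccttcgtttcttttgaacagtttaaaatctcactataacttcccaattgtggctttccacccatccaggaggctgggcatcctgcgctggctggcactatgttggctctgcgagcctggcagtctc
Il18r1, start 3, chr1:40465777-40465805, plus strand: tcggggttagTTCTGGGAActgtggagct
Il18r1, start 3, chr1:40465844-40465872, plus strand: agtacaggtcTTCCCAGAActgaaagctt
The Il12rb2 match lies 123 bases upstream of the start and the Il18r1 matches 219 and 152 bases upstream of start 3 of its annotated starts. Of 32851 promoter windows of the same length, 7.02% hold the motif. It was not found in the windows of Il18r1 starts 1 and 2 or in those of Il2ra, Il18rap, Il15ra, Il4ra, Il21r or Il2rg. The AP-1 motif TGANTCA (6.75% of windows, both strands) was found once, in the window of the second Il15ra start, and the RUNX motif TGTGGT (14% of windows, both strands) in those of Il21r and Il2rg, none overlapping another. The Il2ra window has 3 CpG and 42.4% G and C, the first Il18r1 window 3 and 40.8%, and the Il12rb2 window 10 and 50%, against medians of 6 and 52.4% over all windows.

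Per kilobase of exon, the common chains led in every group. Il2rg had the highest mean level, at 216 ± 15.2, 200 ± 26.7, 179 ± 24.3 and 226 ± 68.1 CPM per kilobase (SD, n = 4) with vehicle at day 10, entinostat at day 10, vehicle at day 17 and entinostat at day 17. Il2rb came second, at 152 ± 10.3, 159 ± 19.5, 118 ± 9.48 and 193 ± 30.0 CPM per kilobase. Il21r at rank 3 and Il4ra at rank 4 followed in all 4 groups, with no overlap of the libraries between Il2rb and Il21r or between Il21r and Il4ra. Il2rg and Il2rb overlapped in both entinostat groups and in neither vehicle group. Il18r1 and Il18rap came next, without overlap with vehicle at day 10 (61.4 ± 8.19 and 46.9 ± 4.41 CPM per kilobase). In the other 3 groups they overlapped, and with entinostat at day 17 Il18r1 was at rank 8. Il12rb2, Il12rb1 and Il2ra stood between 13.4 and 38.5 CPM per kilobase in group means. Il15ra was last throughout, at 7.91 to 11.2 CPM per kilobase, and overlapped the gene ranked above it only with vehicle at day 17.

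**Figure D1:**
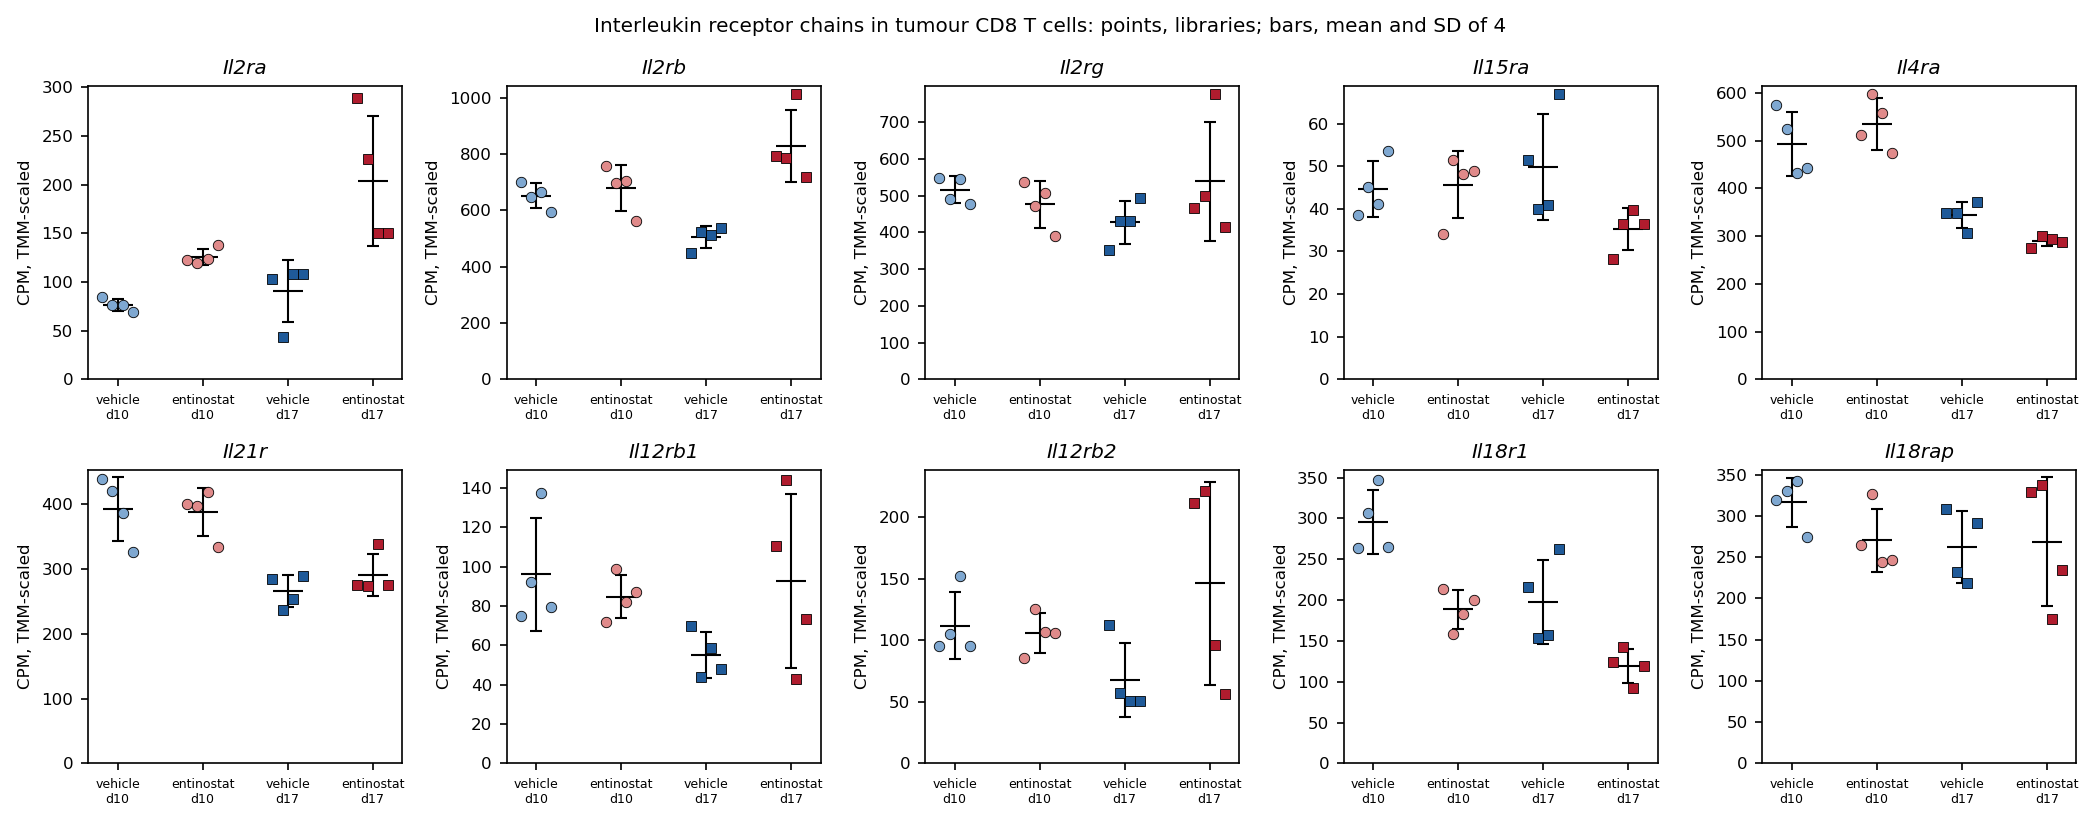
CPM of each receptor chain gene in the 16 libraries, by treatment and day, on axes that start at 0, with black bars for the mean and SD of 4. Il2ra and Il2rb are highest with entinostat at day 17, Il18r1 is lowest there, and Il12rb1 and Il12rb2 with entinostat at day 17 spread from 42.9 to 144 and from 56.4 to 221 CPM.

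After 3 days of entinostat, 2 of the 10 chains changed, Il2ra upward and Il18r1 downward, against 14.6% of all genes tested in either direction (7.63% higher and 6.93% lower). After 10 days 5 changed, with Il2ra, Il2rb, Il12rb1 and Il12rb2 higher and Il18r1 lower, against 18.3% of all genes (5.29% higher and 13.0% lower). The median log2 fold change of the 10 members was −0.05 at day 10 and 0.22 at day 17, beside 0.06 and −0.01 over all genes tested. Over genes above the level of olfactory receptor reads, as all 10 members are, the medians were −0.14 and −0.19. Over the 10 CD8 T cell markers they were −0.18 and 0.29, with 0 higher and 1 lower at day 10 and 0 called at day 17. Libraries of the treatments did not overlap for 2 chains at day 10 and for 5 at day 17, against 20.2% (7.81% higher, 12.4% lower) and 24.4% (10.8% higher, 13.6% lower) of all genes. At day 10 these were Il2ra, higher, and Il18r1, lower. At day 17 they were Il2ra and Il2rb, higher, and Il18r1, Il15ra and Il4ra, lower, of which Il15ra and Il4ra were not called. Il2ra, Il2rb and Il18r1 held their day 17 calls when any 1 library was left out. These counts come from a fit without a replicate block. With that block Il2ra at day 10 was not called (edgeR adjusted p = 0.0638). The count of all genes called, 2534 at day 10 and 3190 at day 17, was 909 without entinostat day 10 replicate 3 and 4151 without replicate 4 at day 10, and 1945 without vehicle day 17 replicate 1 at day 17.

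Il2ra encodes CD25, the chain that gives the interleukin 2 receptor high affinity. At day 10 its level was 84.6, 76.6, 76.2 and 69.2 CPM in vehicle replicates 1 to 4 and 123, 119, 124 and 138 CPM in entinostat replicates 1 to 4. Every entinostat library lay above every vehicle library. The log2 fold change was 0.72 ± 0.23 (edgeR adjusted p = 0.0468). Equal replicate numbers varied together in the day 10 groups over genes above background, though the labels state no pairing. Under a fit with the replicate number as a block, Il2ra was not called (edgeR adjusted p = 0.0638, or 0.0914 with the block within each day). It also lost the call without any one of the 8 day 10 libraries (edgeR adjusted p = 0.0517 to 0.105) and when entinostat day 17 replicate 2 was dropped (0.0543). With no filter on low counts the edgeR adjusted p was 0.0580.

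By day 17 the Il2ra levels were 103, 43.2, 108 and 108 CPM with vehicle and 289, 226, 150 and 150 CPM with entinostat. The groups again did not overlap, although vehicle replicate 2 stood far below the other 3. Il2ra was 2.28-fold higher (log2 1.19 ± 0.23, edgeR adjusted p = 0.00181). It stayed called in all 29 alternatives, at 1.00 to 1.53. Regulatory T cells also carry CD25. Their factor Foxp3 was 92.2 CPM in entinostat day 17 replicate 1, the library with the most Il2ra, and 5.74 to 14.9 CPM in the other 3, and it was 25.6 CPM in vehicle day 17 replicate 2 and 54.5 to 76.8 CPM in the other 3. The summed level of the 8 regulatory T cell markers was 839 to 1174 CPM with vehicle and 882 to 1110 CPM with entinostat at day 17, none of them at 0 in all libraries of a group, and 1 of the 8 rose and 1 fell with the drug. Ctla4 had the highest mean of the 8, at 246 CPM with vehicle and 394 CPM with entinostat, so it weighs most in the sum. Cd4, one of the 8, was at 43.6 to 54.6 CPM with vehicle and 5.44 to 9.91 CPM with entinostat. It was lower beside the lower plasmacytoid dendritic cell markers given above, and which cells held its RNA was not tested. The sum therefore does not show how Foxp3 or Cd4 moved. The part of regulatory T cells in the change of Il2ra was not tested. Without entinostat day 17 replicate 1 the Il2ra value was 1.00 ± 0.23 (edgeR adjusted p = 0.00886).

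Il2rb encodes CD122, a signal chain for interleukin 2 and interleukin 15. At day 10 its values were 701, 649, 666 and 595 CPM with vehicle and 758, 697, 704 and 562 CPM with entinostat, overlapping sets that differed by 0.06 ± 0.11 on the log2 scale (edgeR adjusted p = 0.734). At day 17 they were 447, 525, 511 and 540 CPM with vehicle and 794, 787, 1014 and 718 CPM with entinostat. The lowest entinostat library exceeded the highest vehicle library. Il2rb was 1.63-fold higher (0.71 ± 0.12, edgeR adjusted p = 0.000375) and was called in all 29 alternatives, at 0.62 to 0.89. Without the shallowest library, which held the highest value, it stood at 0.63 ± 0.10 (edgeR adjusted p = 0.000657). Day 17 libraries held 2842099 to 6975904 counts with vehicle and 554593 to 3530961 with entinostat. Il2rb was lowest of its group in the deepest library of vehicle day 17 (447 CPM) and of entinostat day 10 (562 CPM). In the deepest of vehicle day 10 (649 CPM) and of entinostat day 17 (787 CPM) it was not. The part of depth in the change of Il2rb was not tested. Natural killer cells also carry Il2rb. At day 17 the 10 markers of natural killer and innate lymphoid cells summed to 555 to 654 CPM with vehicle and 289 to 456 CPM with entinostat, and of 8 tested 1 rose and 3 fell. Ncr1 was at 0 to 9.34 CPM over all 16 libraries and Klra4 at 0 in each. Means at day 17 with vehicle and entinostat were 3.92 and 3.54 CPM for Ncr1. They were 151 and 98.2 CPM for Gata3 and 154 and 118 CPM for Rora, listed genes that T cells also express. The sum therefore does not show how natural killer cells moved. The part of these cells in the change of Il2rb was not tested. At day 10, cyclic loess scaling called Il2rb higher (0.27 ± 0.06, limma-voom adjusted p = 0.0225).

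The difference of the drug effect between the days was tested for each chain, and 0 of 10 passed with edgeR, against 0.471% of all genes, with 4 at an unadjusted p under 0.05. Il2rb came nearest, with 0.65 ± 0.16 more at day 17 (edgeR adjusted p = 0.0837). It passed with DESeq2 (0.70 ± 0.17, adjusted p = 0.00399), with limma-voom using sample quality weights (0.52 ± 0.12, adjusted p = 0.0434), with receptor reads as a covariate (0.66 ± 0.14, edgeR adjusted p = 0.0303) and with cyclic loess scaling (0.44 ± 0.09, limma-voom adjusted p = 0.0295). For Il2ra the difference was 0.47 ± 0.33 (edgeR adjusted p = 0.586), for Il12rb2 1.21 ± 0.48 (0.282) and for Il12rb1 0.98 ± 0.37 (0.255). The median difference was 0.36 over the 10 chains and 0.52 over the 10 CD8 T cell markers, of which 0 were called. The part of this shift of CD8 T cell transcripts in the values of the chains was not tested.

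Il2rg, the common gamma chain, did not pass in any comparison with edgeR. At day 17 its libraries held 353, 432, 430 and 495 CPM with vehicle and 466, 499, 778 and 415 CPM with entinostat, with the top value in the shallowest library (0.32 ± 0.16, edgeR adjusted p = 0.173). Without that library the value was 0.13 ± 0.12 (edgeR adjusted p = 0.510), and with cyclic loess scaling it passed narrowly (0.32 ± 0.11, limma-voom adjusted p = 0.0498). Its libraries overlapped between the treatments. Il15ra, which presents interleukin 15, was the least abundant chain. Its day 17 libraries held 51.4, 40.1, 41.0 and 66.9 CPM with vehicle and 28.2, 36.5, 39.6 and 36.5 CPM with entinostat. All 4 entinostat values were below the vehicle values, yet the change did not pass (−0.52 ± 0.20, edgeR adjusted p = 0.0818). At day 10 Il2rg stood at −0.11 ± 0.16 and Il15ra at 0.04 ± 0.19, with overlapping libraries for both.

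**Figure D2:**
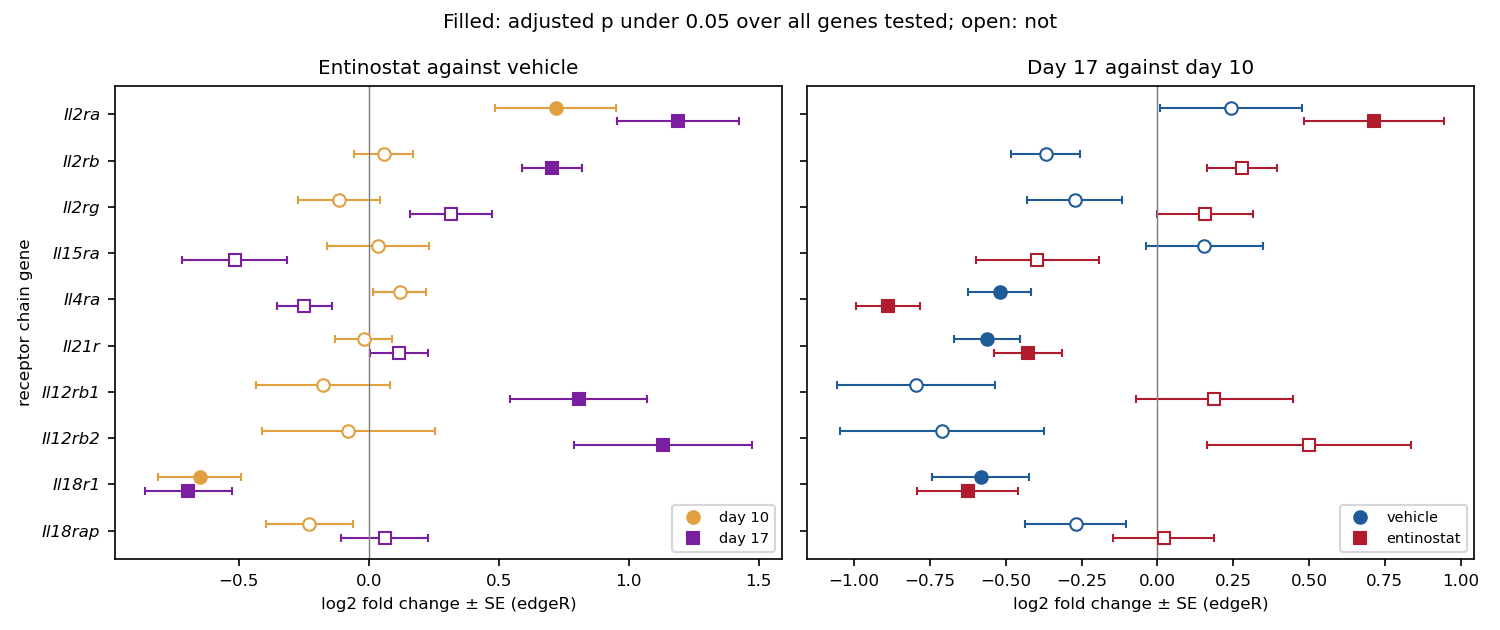
Log2 fold change with its SE for each chain, entinostat against vehicle at each day (left) and day 17 against day 10 in each treatment (right), filled where the adjusted p is under 0.05. Il2ra and Il18r1 lie on opposite sides of 0 at both days of the drug comparison, and Il4ra, Il21r and Il18r1 lie below 0 over time in both treatments.

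Ratios of partner chains within a library do not depend on how libraries are scaled to each other, and are given as descriptions with no test. Since counts of abundant genes did not follow depth, a ratio of chains of unequal abundance can still move with it. The log2 ratio of Il2ra to Il2rb counts was −3.09 ± 0.03, −2.42 ± 0.27, −2.57 ± 0.69 and −2.07 ± 0.56 (SD, n = 4) for vehicle day 10, entinostat day 10, vehicle day 17 and entinostat day 17. At day 10 the drug groups did not overlap in this ratio, and at day 17 they did. It was highest of its group in the deepest library of entinostat day 10 (replicate 4, −2.02) and of vehicle day 17 (replicate 1, −2.12) and lowest of its group in the shallowest library (−2.75). Without the shallowest library the entinostat day 17 mean was −1.84. The part of depth in these ratios was not tested. The ratio of Il2rg to Il2rb was −0.34 ± 0.05 and −0.51 ± 0.04 at day 10 and −0.25 ± 0.09 and −0.65 ± 0.19 at day 17, lower in each entinostat library than in any vehicle library of its day. Il15ra to Il2rb was −3.37 ± 0.36 with vehicle and −4.54 ± 0.23 with entinostat at day 17, again without overlap, and −3.87 ± 0.30 and −3.90 ± 0.40 at day 10.

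**Figure D3:**
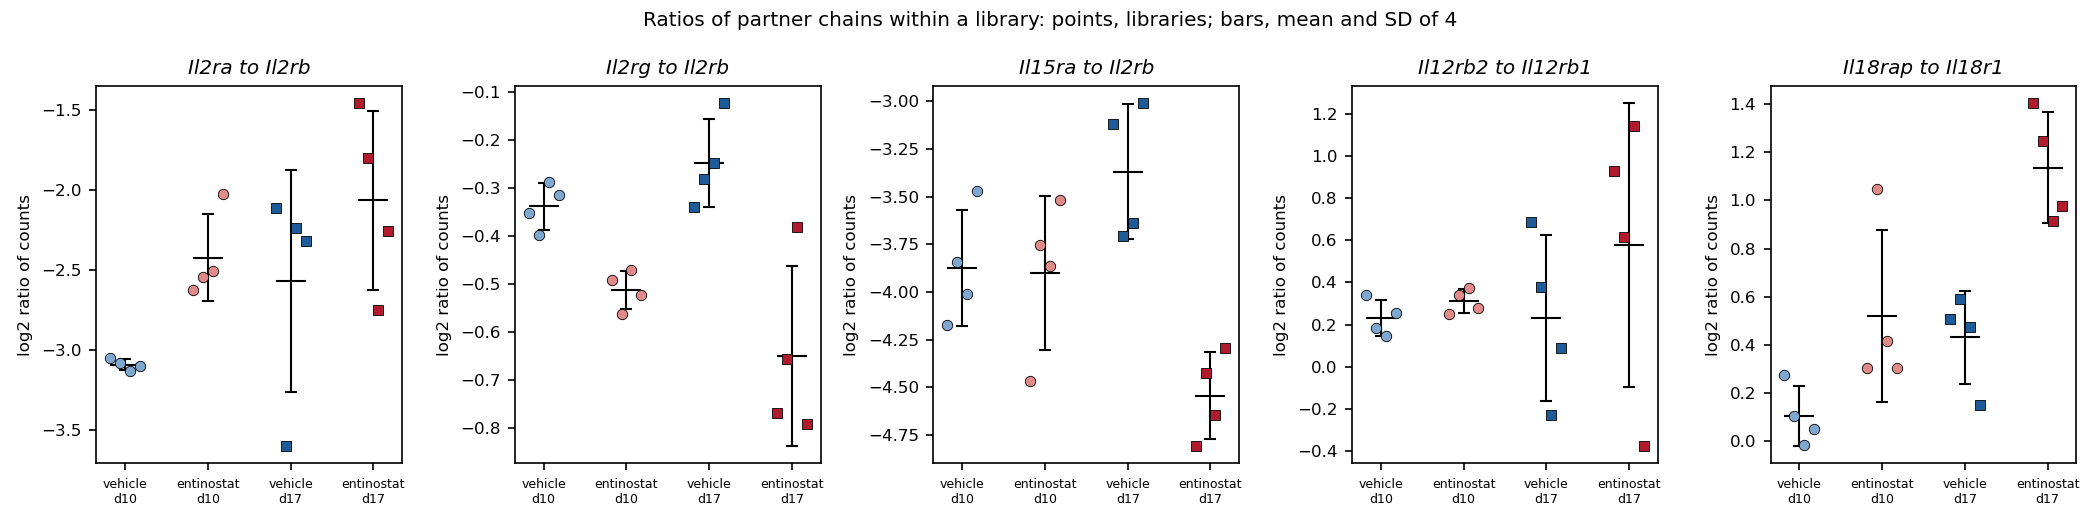
Log2 ratio of the counts of partner chains in each of the 16 libraries, with the mean and SD of 4, on axes that do not start at 0. Il18rap to Il18r1 is highest with entinostat at day 17 (0.91 to 1.40), and Il15ra to Il2rb is lowest there (−4.81 to −4.29).

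Both interleukin 12 receptor chains rose with the drug at day 17, though not every library lay above the vehicle range. Il12rb2, the chain that sets responsiveness to interleukin 12, held 112, 56.9, 50.2 and 50.8 CPM with vehicle and 211, 221, 95.8 and 56.4 CPM under entinostat at day 17. Replicates 1 and 2 with entinostat were above all vehicle libraries, and replicates 3 and 4 lay within their range. The log2 fold change was 1.13 ± 0.34 (edgeR adjusted p = 0.0280). Without entinostat day 17 replicate 1 it was 0.92 (edgeR adjusted p = 0.1005), without replicate 2 0.85 (0.101), and without vehicle day 17 replicate 2, 3 or 4 it was 1.09, 1.02 or 1.01 (0.0565, 0.0837 and 0.0639). With only the day 17 groups in the fit it was 1.19 and not called (edgeR adjusted p = 0.0608). Serbp1, which shares exon bases with Il12rb2, stood at 0.01 ± 0.08 (edgeR adjusted p = 0.924).

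Il12rb1 held 69.6, 43.7, 58.9 and 47.8 CPM with vehicle and 111, 144, 42.9 and 73.3 CPM under entinostat at day 17. The shallowest library, with 26 counts of this gene, had the lowest value, and the other 3 entinostat libraries lay above every vehicle library. The log2 fold change was 0.81 ± 0.26 (edgeR adjusted p = 0.0401). Leaving out entinostat day 17 replicate 1 (0.75, edgeR adjusted p = 0.0934) or 2 (0.51, 0.169) ended the call, as did leaving out vehicle day 17 replicate 2, 3 or 4 (0.0745, 0.0697 and 0.0778) or entinostat day 10 replicate 3 (0.0516). With the replicate block the edgeR adjusted p was 0.0664, and 0.0807 with the block within each day. With no filter on low counts it was 0.0577, and with only the compared groups 0.0572. At day 10 neither chain passed (Il12rb1 −0.18 ± 0.26 and Il12rb2 −0.08 ± 0.33), and the libraries overlapped, at 71.8 to 138 CPM and 85.5 to 152 CPM over both treatments. Vehicle day 10 replicate 3 had the most of both chains among the day 10 libraries, 138 and 152 CPM.

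**Figure D4:**
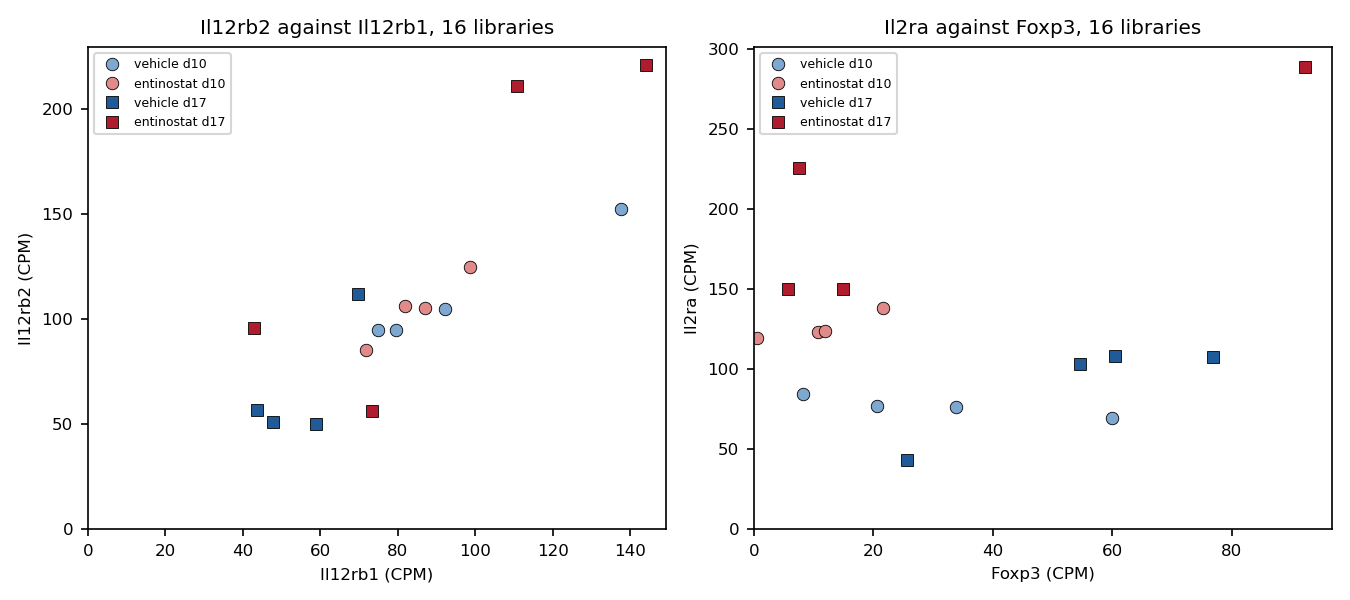
Levels in each of the 16 libraries, in CPM on axes from 0: Il12rb2 against Il12rb1 (left) and Il2ra against the regulatory T cell factor Foxp3 (right). Entinostat day 17 replicates 1 and 2 are the top points for Il12rb2, at 211 and 221 CPM, and replicate 1 is the top point for Foxp3, at 92.2 CPM.

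Il18r1, the binding chain for interleukin 18, was lower with the drug at both days. At day 10 its libraries held 264, 307, 347 and 265 CPM with vehicle and 214, 158, 183 and 200 CPM with entinostat. At day 17 they held 217, 154, 158 and 262 CPM with vehicle and 125, 142, 92.5 and 119 CPM with entinostat. Neither day had an overlap between treatments. The log2 fold change was −0.65 ± 0.16 at day 10 (edgeR adjusted p = 0.0155) and −0.69 ± 0.17 at day 17 (0.00755). Day 10 was not called without vehicle day 10 replicate 2 (edgeR adjusted p = 0.0591) or 3 (0.0577) or entinostat day 10 replicate 2 (0.0671), nor with library size alone (0.0527) or on genes above background (0.0536). With cyclic loess scaling neither day was called, at −0.42 ± 0.14 and −0.41 ± 0.17 (limma-voom adjusted p = 0.105 and 0.123), and day 17 was not when the shallowest library was dropped and only genes above background were kept (−0.48 ± 0.18, edgeR adjusted p = 0.0745).

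Il18rap, the signalling partner, did not pass at either day. Its day 17 libraries held 308, 232, 219 and 291 CPM with vehicle and 329.7, 337, 175 and 234 CPM with entinostat (0.06 ± 0.17, edgeR adjusted p = 0.831), and at day 10 the value was −0.23 ± 0.17 (0.338). The 2 groups overlapped at each day. The log2 ratio of Il18rap to Il18r1 counts was 0.10 ± 0.12 with vehicle and 0.52 ± 0.36 with entinostat at day 10, and 0.43 ± 0.19 and 1.14 ± 0.23 at day 17 (SD, n = 4). In each entinostat library it exceeded every vehicle library of the same day. Innate lymphoid and natural killer cells also carry these chains, and their 10 markers summed to 675 to 765 and 500.5 to 593 CPM at day 10, and to 555 to 654 and 289 to 456 CPM at day 17, with vehicle and entinostat. Klra4 was at 0 in all groups and Klra8 in 3 of them. Rora, which T cells also express, had the highest mean of the list in every group, at 118 to 297 CPM. Gata3, a T helper factor, is on the list too. The part of these cells in the change of Il18r1 was not tested.

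Il4ra and Il21r, partners of the common gamma chain, did not pass for the drug at either day with edgeR and fell with time. Day 10 levels of Il4ra were 574, 523, 433 and 442 CPM with vehicle and 512, 598, 558 and 474 CPM with entinostat. By day 17 it held 348, 349, 307 and 372 CPM with vehicle and 276, 300.4, 294 and 288 CPM with entinostat. All day 17 libraries were below all day 10 libraries. With cyclic loess scaling Il4ra was called higher with the drug at day 10 (0.36 ± 0.10, limma-voom adjusted p = 0.0389). The fall over time was −0.52 ± 0.10 with vehicle (edgeR adjusted p = 0.00967) and −0.89 ± 0.11 with entinostat (3.81e-05). The entinostat value was called in all 28 alternatives, and the vehicle value was not with cyclic loess scaling (−0.18 ± 0.10, limma-voom adjusted p = 0.391) or library size alone (−0.38 ± 0.11, edgeR adjusted p = 0.0650). At day 17 the drug value of Il4ra was −0.25 ± 0.11 (edgeR adjusted p = 0.108), with no overlap between treatments.

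Day 10 levels of Il21r were 438, 421, 387 and 326 CPM with vehicle and 401, 398, 419 and 334 CPM with entinostat. By day 17 it held 285, 237, 254 and 289 CPM with vehicle and 275, 274, 339 and 276 CPM with entinostat. Vehicle libraries did not overlap between days, and entinostat libraries did, through the shallowest one. The change over time was −0.56 ± 0.11 with vehicle (edgeR adjusted p = 0.00906) and −0.43 ± 0.11 with entinostat (0.0157). Cyclic loess scaling ended both calls (−0.23 ± 0.09 and −0.23 ± 0.10, limma-voom adjusted p = 0.227 and 0.165), and library size alone (edgeR adjusted p = 0.0834) and genes above background (0.116) ended that with entinostat. The entinostat call was also lost with RLE scaling (edgeR adjusted p = 0.0608), a minimum count of 50 (0.102) and only the compared groups (0.0530). It held in 22 of 28 alternatives. For the drug, Il21r stood at −0.02 ± 0.11 at day 10 and 0.12 ± 0.11 at day 17.

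Over time with vehicle, 3 of 10 chains changed, all downward (Il4ra, Il21r and Il18r1), against 5.52% of all genes tested (1.89% higher and 3.64% lower). Il18r1 fell by 0.58 ± 0.16 on the log2 scale (edgeR adjusted p = 0.0409), a call lost without vehicle day 10 replicate 1 (0.0604), 2 (0.102) or 3 (0.139), vehicle day 17 replicate 2 (0.132) or 3 (0.102), entinostat day 10 replicate 3 (0.0528) or entinostat day 17 replicate 1 (0.050). It was called in 13 of 28 alternatives, and was not with a minimum count of 50 (edgeR adjusted p = 0.0776), only the compared groups (0.101), genes above background (0.0822, or 0.0757 without the shallowest library), the covariate (0.0626), the replicate block (0.0505), library size alone (0.111) or cyclic loess scaling (limma-voom, 0.197). Libraries of the 2 days did not overlap for 5 chains, the 3 named with Il2rb and Il12rb1, all lower at day 17, where 13.6% of all genes did not overlap (4.78% higher and 8.77% lower). Il2rb stood at −0.37 ± 0.11 (edgeR adjusted p = 0.0627), Il12rb1 at −0.80 ± 0.26 (0.0734) and Il12rb2 at −0.71 ± 0.34 (0.193). Il2rb passed without vehicle day 10 replicate 4 (0.0288), entinostat day 10 replicate 4 (0.0289), entinostat day 17 replicate 3 (0.0260) or 4 (0.0418), and Il12rb1 without vehicle day 10 replicate 4 (0.0469), entinostat day 17 replicate 3 (0.0318) or vehicle day 17 replicate 1 (0.0298). Il12rb2 passed without vehicle day 17 replicate 1, its highest vehicle library of that day (−1.11 ± 0.33, edgeR adjusted p = 0.0356). The median of the 10 was −0.44, beside 0.13 over all genes tested and −0.06 over genes above the level of olfactory receptor reads. In the same comparison the 10 CD8 T cell markers summed to 2862 to 3257 CPM at day 10 and 2412 to 2704 CPM at day 17, with 2 of 10 lower and a median of −0.30. Markers of tumour epithelium and stroma summed to 149 to 499 and 345 to 1596 CPM, with 2 of 8 tested higher and a median of 2.33. The part of these cells in the falls of Il4ra, Il21r and Il18r1 was not tested.

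Over time with entinostat, 4 of 10 chains changed, against 13.7% of all genes (3.26% higher and 10.5% lower). Libraries of the days did not overlap for 3 of these chains, Il2ra, Il4ra and Il18r1, against 21.5% of all genes (8.94% higher and 12.5% lower). Il4ra, Il21r and Il18r1 fell, the last by 0.63 ± 0.17 (edgeR adjusted p = 0.0169), and Il2ra rose by 0.71 ± 0.23 (0.0469). The Il2ra call was lost without any one of the 4 vehicle day 10 libraries (edgeR adjusted p = 0.0567 to 0.0636) or of the 4 entinostat day 10 libraries (0.0646 to 0.119), without entinostat day 17 replicate 1 (0.47 ± 0.23, 0.215) or 2 (0.0964), or without vehicle day 17 replicate 3 (0.0578) or 4 (0.0501). It was also lost with no filter on low counts (edgeR adjusted p = 0.0631) and with the replicate block (0.0648), and held in 14 of 28 alternatives. Il18r1 was not called with cyclic loess scaling (−0.36 ± 0.18, limma-voom adjusted p = 0.224), with library size alone (edgeR adjusted p = 0.0553) or on genes above background (0.0517). On those genes without the shallowest library its edgeR adjusted p was 0.0982. Il2rb stood at 0.28 ± 0.11 (edgeR adjusted p = 0.118), or 0.17 ± 0.10 without the shallowest library and 0.18 ± 0.11 without entinostat day 10 replicate 4. It passed in 5 of 28 alternatives, with DESeq2 (0.35, adjusted p = 0.0307), a minimum count of 50 (0.41, edgeR adjusted p = 0.0457), genes above background (0.42, 0.0464), library size alone (0.40, 0.0382) and cyclic loess scaling (0.44, limma-voom adjusted p = 0.000381). Il12rb2 stood at 0.50 ± 0.34 and Il12rb1 at 0.19 ± 0.26. These comparisons share libraries with the drug comparisons, so their values are not independent of them.

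**Figure D5:**
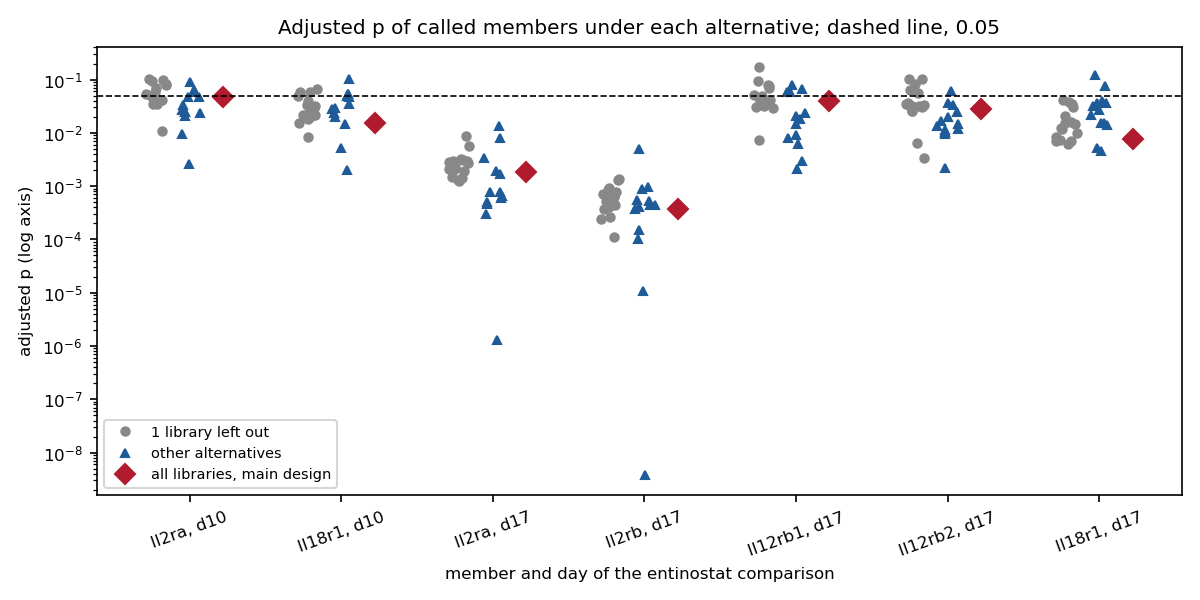
Adjusted p, on a log axis, of each chain called in an entinostat comparison, with all libraries (diamonds), with 1 library left out (circles) and under the other alternatives (triangles), and the threshold of 0.05 dashed. Il2ra and Il2rb at day 17 stay below the line throughout, with highest values of 0.0137 and 0.00492, while Il2ra at day 10 and Il12rb1 at day 17 cross it often.

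The genes whose log2 CPM followed a chain most closely over the 16 libraries were found among 9431 genes and are given as descriptions. For Il2rb they were Ccl5, a chemokine of effector T cells (Pearson's r of 0.92), Gzmb, a cytotoxic granule protease (0.90), and Ctla4, an inhibitory receptor (0.90). For Il2ra they were Lta, a cytokine of the TNF family (0.89), Gcnt1, a glycosyltransferase (0.88), and Rfc1, a replication factor subunit (0.86). For Il18r1 they were Son, a splicing factor (0.96), Apbb1ip, an integrin adaptor (0.95), and Xlr4a (0.95). These values share library depth and scaling as well as the groups.

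The lists that follow are described by counts and medians. Over all genes tested, 5.29% were higher and 13.0% lower at day 17. The median was −0.01, or −0.19 over genes above the level of olfactory receptor reads. At day 10, 7.63% were higher and 6.93% lower, with medians of 0.06 over all genes tested and −0.14 over those above that level. Downstream of the chains, 0 of 11 JAK and STAT genes rose and 5 fell after 10 days of entinostat (0 and 2 after 3 days), with a median of −0.32. Stat5a, a transducer of interleukin 2 and 15 signals, stood at 184 ± 32.4 CPM with vehicle and 108 ± 26.4 CPM under entinostat at day 17, and fell by 0.73 ± 0.15 (edgeR adjusted p = 0.00328). Stat2, of the type I interferon pathway, fell by 1.17 ± 0.16 and Jak2, a kinase of the interleukin 12 receptor, by 0.63 ± 0.14. The partner kinase Tyk2 fell by 0.60 ± 0.17, and missed the threshold once entinostat day 17 replicate 4 was left out (edgeR adjusted p = 0.0832) or vehicle day 17 replicate 1 (0.0714) or 3 (0.0659). Stat4, the interleukin 12 transducer, stood at −0.37 ± 0.13 (edgeR adjusted p = 0.0533), Stat5b at −0.26 ± 0.13 and Jak3, the kinase of the common gamma chain, at 0.19 ± 0.11, none past the threshold.

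Among 9 adaptors and kinases of interleukin 18 signalling, 1 rose and 4 fell at day 17 (1 and 1 at day 10), with a median of −0.43 at day 17. Irak1, a kinase recruited by MyD88, fell by 0.49 ± 0.10 (edgeR adjusted p = 0.00273). Irak2 fell by 0.59 ± 0.15, not called without entinostat day 17 replicate 1 (0.0502) or 4 (0.0670) or vehicle day 17 replicate 1 (0.0718). Myd88 fell by 0.60 ± 0.17, not called without entinostat day 17 replicate 3 (0.0646) or 4 (0.0840) or vehicle day 17 replicate 1 (0.0713), 2 (0.0661) or 3 (0.0734). The gene that rose, the inhibitory Irak3, was at day 17 at 1.96 ± 0.64 CPM in vehicle libraries and 8.50 ± 3.76 CPM in treated ones, a rise of 2.02 ± 0.60 on the log2 scale (edgeR adjusted p = 0.0264) between levels not above that of olfactory receptor reads. It was not called without entinostat day 17 replicate 3 (0.0687) or 4 (0.0659) or vehicle day 17 replicate 3 (0.0642) or 4 (0.0543).

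Of 13 feedback inhibitors 1 rose and 2 fell at day 17 (0 and 1 at day 10), with a median of −0.26 at day 17. Cish, induced by STAT5, stood at 96.1 ± 18.1 CPM with vehicle and 155 ± 50 CPM with entinostat and rose by 0.70 ± 0.21 (edgeR adjusted p = 0.0303). Its call was lost without entinostat day 17 replicate 1 (0.0719) or 2 (0.125) or vehicle day 17 replicate 2 (0.0518), 3 (0.0745) or 4 (0.0697), and with the replicate block (0.0509). Sh2b3, the adaptor LNK, fell by 1.29 ± 0.18. The phosphatase gene Ptpn6 fell by 0.77 ± 0.09 at day 10 and by 0.36 ± 0.09 at day 17, the latter called in 22 of 29 alternatives and not with library size alone (edgeR adjusted p = 0.0804) or on genes above background (0.162). Socs1 stood at 0.03 ± 0.14 and Socs3 at −0.21 ± 0.11 at day 17, not past the threshold.

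Among 16 genes of the interleukin 2 and STAT5 response, 5 rose and 3 fell at day 17 (1 and 1 at day 10), with a median of 0.14. Gzmb rose by 2.31 ± 0.26 (186 ± 27.1 to 938 ± 517 CPM), Prf1, the pore-forming perforin, by 1.93 ± 0.15, Tnfrsf9, the costimulatory receptor 4-1BB, by 0.89 ± 0.12 and Lta by 1.30 ± 0.24. Lta also rose at day 10, by 1.02 ± 0.24. Of 11 genes of the interleukin 12, interleukin 18 and STAT4 response 4 rose and 0 fell at day 17, with a median of −0.16, and 0 changed at day 10. Ifng, interferon gamma, rose by 1.23 ± 0.20, Gadd45g, a stress signalling protein, by 1.24 ± 0.21 and Tbx21, the factor T-bet, by 0.59 ± 0.15, beside Prf1, which is on both lists. Among 8 genes of the interleukin 21 and 4 response 1 rose and 2 fell at day 17 (1 and 0 at day 10), with a median of −0.18. Prdm1, the repressor Blimp-1, rose by 0.95 ± 0.22, and Bcl6, which opposes it, fell by 1.23 ± 0.25, as did Gata3, a T helper factor, by 0.60 ± 0.15 (not called without entinostat day 17 replicate 4, edgeR adjusted p = 0.0580).

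Among 19 other interleukin receptor chains tested, 0 rose and 4 fell at each day, with medians of −0.09 at day 10 and −0.37 at day 17. Il10rb, a chain of the interleukin 10 receptor, fell by 0.54 ± 0.12 at day 10 and by 0.64 ± 0.12 at day 17. Csf2rb, a common chain of myeloid cytokine receptors, fell by 2.23 ± 0.39 at day 10 and fell by 3.36 ± 0.44 at day 17, beside the lower plasmacytoid dendritic cell markers given above. The part of these cells in the fall of Csf2rb was not tested. Il7r, the interleukin 7 receptor, stood at 507 ± 120 CPM with vehicle and 384 ± 48.8 CPM under entinostat at day 17. Its fall of 0.41 ± 0.13 (edgeR adjusted p = 0.0399) was called in 10 of 29 alternatives. It was lost without any one of 9 libraries (adjusted p = 0.0515 to 0.164): vehicle day 10 replicates 1, 2 and 4, entinostat day 10 replicates 2 and 4, entinostat day 17 replicates 1 and 4, and vehicle day 17 replicates 3 and 4. Il6ra, the interleukin 6 receptor, fell by 0.54 ± 0.17 at day 17 (edgeR adjusted p = 0.0338), not called without entinostat day 17 replicate 1 (0.124) or vehicle day 17 replicate 3 (0.115).

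Of 13 ligand genes 9 were tested, and 1 rose and 1 fell at day 17 (2 and 1 at day 10). Il2 stood at 15.1 ± 5.19 CPM with vehicle and 11.4 ± 10.3 CPM under entinostat at day 17 (−0.36 ± 0.49, edgeR adjusted p = 0.642). Il12a, a subunit of interleukin 12, was at 63.9 ± 6.60 and 12.3 ± 6.49 CPM there and fell by 2.33 ± 0.52 (edgeR adjusted p = 0.00483), again beside the lower plasmacytoid dendritic cell markers. Markers of conventional dendritic cells summed to 1031 to 1490 CPM with vehicle and 365 to 405 CPM with entinostat at day 17, with 5 of 10 lower and 0 higher. The part of these cells in the fall of Il12a was not tested. Il15 stood at −0.72 ± 0.47 and Il18 at −0.24 ± 0.56 at day 17, neither past the threshold. Il21, which rose by 3.20 ± 1.03 (edgeR adjusted p = 0.0389), was at 0.43 ± 0.60 CPM with vehicle and 4.47 ± 1.73 CPM with entinostat there. Its call was lost without entinostat day 17 replicate 2 (0.0578), 3 (0.0677) or 4 (0.102) or vehicle day 17 replicate 1 (0.0847), 2 (0.0736) or 4 (0.0684). Il15, Il18, Il12b and Il21 were not above the level of olfactory receptor reads, with group means of at most 16.5 CPM.

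The following listed genes passed the threshold at day 10, and most of these calls were lost on leaving out any 1 of several libraries. Stat2 fell by 0.55 ± 0.16 (edgeR adjusted p = 0.0292), not called without vehicle day 10 replicate 3 or 4 or entinostat day 10 replicate 1, 2 or 3 (0.063 to 0.103). Irak1 fell by 0.37 ± 0.10 (0.0229), not called without any one of replicates 1 to 3 of either day 10 group (0.0544 to 0.0999). Irak3 rose by 3.40 ± 0.64 (0.80 ± 0.64 to 8.95 ± 1.82 CPM), between levels not above that of olfactory receptor reads. It was called in all 26 alternatives that tested it, and fits on genes above background did not test it. Olfactory and vomeronasal receptor reads summed to 633 to 2015 CPM in vehicle and 592 to 5568 CPM in entinostat libraries at day 10. Their part in the rises of Irak3, Il21 and Il12b was not tested. Il10, an inhibitory cytokine on the interleukin 21 list, rose by 2.16 ± 0.55 (4.76 ± 4.25 to 21.5 ± 8.31 CPM), not called without vehicle day 10 replicate 3 (0.0559) or entinostat day 10 replicate 1 (0.0642). Il27ra, the interleukin 27 receptor, fell by 0.43 ± 0.12, not called without vehicle day 10 replicate 1, 2 or 3 or any entinostat day 10 library (0.0549 to 0.106). Il21 rose by 4.34 ± 1.13, not called without vehicle day 10 replicate 1 (0.0576) or entinostat day 10 replicate 1 (0.0757) or 3 (0.0523). Il12b, a subunit of interleukin 12, rose by 2.21 ± 0.67, not called without any vehicle day 10 library or entinostat day 10 replicate 1, 2 or 3 (0.0698 to 0.0911). The kinase Jak2 fell by 0.41 ± 0.13 (edgeR adjusted p = 0.0476), not called without any day 10 library or entinostat day 17 replicate 1, 3 or 4 (0.0514 to 0.142). Ccnd2, a cyclin, fell by 0.36 ± 0.11 (0.0364), not called without replicate 1, 2 or 3 of either day 10 group, entinostat day 17 replicate 1 or 4 or vehicle day 17 replicate 2 or 3 (0.0563 to 0.156). Il17rb fell by 1.37 ± 0.42 (0.0394), not called without vehicle day 10 replicate 1, 3 or 4, entinostat day 10 replicate 1, 2 or 4, entinostat day 17 replicate 1 or 4 or vehicle day 17 replicate 3 (0.0514 to 0.138). Il12a fell by 1.57 ± 0.50 (0.0447), not called without vehicle day 10 replicate 1, 3 or 4, entinostat day 10 replicate 1, 2 or 3, entinostat day 17 replicate 1, 3 or 4 or vehicle day 17 replicate 2 or 3 (0.0514 to 0.148). With the replicate block over all libraries, Stat2 (edgeR adjusted p = 0.0561), Jak2 (0.0701), Ccnd2 (0.0639) and Il12b (0.0668) were not called. With the block within each day these 4 (0.0632, 0.0557, 0.0929 and 0.0932) and Irak1 (0.0629), Il17rb (0.0580) and Il21 (0.0719) were not called.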

How the data were processed

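RNA of sorted CD8 T cells was sequenced in 16 libraries made with a full-length cDNA kit that does not mark strand, per the labels' protocols. The authors deposited raw counts of reads over exons per gene. Per the submitters' processing notes the aligner was STAR and the build mm10. How reads were assigned to genes, with which annotation, and whether duplicates were removed is not given in the sources used here. Groups were taken from the labels, with 4 libraries each. Genes were kept by edgeR's filter with a minimum count of 10 and scaled by TMM. They were fitted with 1 mean per group over all 16 libraries (edgeR 4.0.16 quasi-likelihood test, R 4.3.3). Benjamini-Hochberg adjustment was over all 17414 genes tested. A prior count of 2 was used for the log2 CPM behind correlations and was not set in the fit. The fit had 12 residual degrees of freedom and a common biological coefficient of variation of 0.38. Since nothing says that replicates are separate animals, the spread behind each p-value is that of these samples and may be technical. Per-kilobase levels used GENCODE exon unions on GRCm38, and background was the 99th percentile of 1425 olfactory and vomeronasal receptor genes.

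The members and gene lists were chosen with earlier results of these data known. From each list that holds no markers, up to 4 called genes of smallest p were named in each entinostat comparison, and 14 ligand, receptor and signalling genes always where tested. The alternatives were 12 kinds from a first list, among them DESeq2 1.42.0, limma-voom with sample quality weights (limma 3.58.1) and leaving out each library, and 2 chosen after seeing the data (cyclic loess scaling, and genes above background without the shallowest library). Replicate numbers are shared between groups. Over 11342 genes above background, same-numbered libraries of the day 10 groups deviated together (correlations 0.227, 0.199, 0.188 and 0.208). The labels state no pairing, so a pairing of these libraries would rest on the data. The main fit took them as unpaired, and the replicate number as a block was an alternative. No other pair of groups had all 4 correlations above 0.1, and over all genes tested the day 10 correlations were 0.03 to 0.18. Over all genes tested, the 2 day 10 libraries of replicate 1 were each other's best match. Those of replicates 2, 3 and 4 were not, so the pairing is uncertain. The script was tested on simulated data.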

Additional observations from a re-analysis of the deposited data

Results flagged for a closer look

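In 3 of 40 groups of 4 libraries, 1 library stood apart from the rest, with a gap, as a share of the group's range, over Dixon's critical value for 4 samples. Chance gives this in about 1 in 20 groups. Il2ra was 43.2 CPM in vehicle day 17 replicate 2, the lowest of its group, where the others were 103 to 108 CPM. Il21r was 339 CPM in entinostat day 17 replicate 3, the shallowest library and the highest of its group, where the others were 274 to 276 CPM. Il12rb2 was 112 CPM in vehicle day 17 replicate 1, the highest of its group, where the others were 50.2 to 56.9 CPM.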

How the results depend on the processing

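The calls of Il2ra and Il2rb at day 17 held in all 29 alternatives. Of 620 fold changes of members under alternatives other than leaving out a library, 532 kept direction and side of the threshold, 36 lost the call, 18 gained it and 34 turned in sign. The cause of these changes was not tested.

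Here limma-voom stands for limma-voom with sample quality weights. Members called at day 10 numbered 1 rather than 2 with library size alone, with no filter on low counts, on genes above background and with the replicate block, over all libraries or within each day, and 3 with cyclic loess. With only the compared groups in the fit, 3 rather than 5 were called at day 17. Over time with vehicle the count was 5 with DESeq2, 5 with limma-voom, 1 with library size alone and 0 with cyclic loess scaling, rather than 3. For the difference between days 1 was called with DESeq2, limma-voom, receptor reads as a covariate and cyclic loess, rather than 0. When libraries were left out singly, the counts were 0 to 2, 3 to 5, 2 to 5, 3 to 4 and 0 to 0 in the order day 10, day 17, vehicle over time, entinostat over time and difference.

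Values that turned sign at day 10 were small. Il2rb was −0.043 with the covariate. Il2rg was 0.049 with library size alone, 0.017 with a minimum count of 50, 0.028 on genes above background, 0.097 with cyclic loess and 0.019 on genes above background once the shallowest library was dropped. In the same order Il21r was 0.14, 0.11, 0.12, 0.21 and 0.11 and Il12rb2 0.083, 0.047, 0.056, 0.16 and 0.047. Il21r was also 0.035 with DESeq2, 0.035 with limma-voom, 0.035 with RLE scaling and 0.081 with only the compared groups, and Il12rb2 0.018 with only those groups and 0.11 with the covariate. Cyclic loess gave Il12rb1 0.060 and Il18rap 0.0078, and over time with vehicle it gave Il2rb 0.0019, Il2rg 0.045 and Il18rap 0.035. Over time with entinostat, Il2rg was −0.047 with limma-voom, and Il18rap −0.013 with no filter and −0.0074 with the replicate block. The Il18r1 difference was 0.14 with limma-voom, 0.0048 with RLE scaling, 0.0056 with cyclic loess and 0.041 on genes above background once the shallowest library was dropped.
With libraries left out singly, sign also turned at day 10 for Il2rb (−0.0013 to 0.17), Il15ra (−0.0062 to 0.16), Il21r (−0.075 to 0.072), Il12rb1 (−0.25 to 0.043) and Il12rb2 (−0.12 to 0.10), and at day 17 for Il18rap (−0.069 to 0.22). It turned over time with vehicle for Il15ra (−0.016 to 0.23), over time with entinostat for Il2rg (−0.060 to 0.24), Il12rb1 (−0.10 to 0.36) and Il18rap (−0.11 to 0.15), and in the difference for Il18r1 (−0.16 to 0.11).

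Counts of all genes called moved by over 1.5 times under the following alternatives. Day 10 gave 2534, and 6745 with limma-voom, 1332 with a minimum of 50, 1458 with the compared groups, 1306 above background, 1561 with the replicate block, 1160 with it within each day, 770 with cyclic loess and 1353 above background with the shallowest library dropped. Day 17 gave 3190, and 4893 with limma-voom and 2093 above background with that library dropped. Vehicle over time gave 962, and 2116 with DESeq2, 2808 with limma-voom, 493 with library size alone, 636 with the compared groups and 213 with cyclic loess. Entinostat over time gave 2391, and 3933 with limma-voom. The difference gave 82, and 34 (no filter, and block within each day) to 563 (DESeq2). With libraries left out singly, the counts were 909 (without entinostat day 10 replicate 3) to 4151 (replicate 4) at day 10, 1945 (without vehicle day 17 replicate 1) to 3657 (without entinostat day 10 replicate 4) at day 17, 212 (without vehicle day 10 replicate 3) to 2699 (without vehicle day 17 replicate 1) for vehicle over time, 1728 to 2825 for entinostat over time and 14 (without vehicle day 10 replicate 3) to 103 (without entinostat day 17 replicate 4) for the difference. At day 10, 7 libraries moved the count by over 1.5 times (all 4 entinostat day 10 libraries and vehicle replicates 1 to 3), at day 17 vehicle replicates 1 and 3 and entinostat replicate 4 did, and over time with vehicle all 8 vehicle libraries and entinostat day 10 replicate 4. Called genes split 1328 higher to 1206 lower at day 10 and 922 to 2268 at day 17, and 1583 to 510 and 1335 to 1469 with library size alone. Over time with vehicle the split was 329 to 633, or 291 to 202, and with entinostat 568 to 1823, or 897 to 1213.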
